A study of Homo sapiens with 9 samples.

Results

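The endoplasmic reticulum (ER) chaperones, the unfolded protein response and the export of secreted proteins were examined in LX2, a human hepatic stellate cell line; stellate cells make most of the collagen of the fibrotic liver. The members were 36 genes chosen by symbol, which matched 36 of the 36601 Ensembl genes in the count tables, and all 36 had enough counts to be tested. They were chosen with earlier results of these data known, so a share above that of all genes may partly follow from the choice. The cells were wild type apart from the siRNA and were grown in serum-containing medium. Lipofection delivered siRNA at 20 nM against YAP (siYAP) or TAZ (siTAZ) or with no target (siNT, non-targeting), and the cells were kept for 7 days. Each group held 3 libraries, described as biological replicates of 1 cell line with no statement of what separated them, so a p-value covers the variation among these cultures alone, which may be technical. The study asked how losing either of these Hippo pathway coactivators affects stellate cells, and the comparisons here cover the folding and export machinery that handles procollagen.

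Secreted and membrane proteins enter the ER through the SEC61 translocon, are folded there by chaperones and disulfide isomerases, and leave in COPII-coated carriers, while proteins that fail to fold are returned to the cytosol for degradation (ERAD). When unfolded protein builds up, 3 sensors of the ER membrane respond: IRE1 (ERN1), which splices the XBP1 transcript, PERK (EIF2AK3), which slows translation and favours ATF4, and ATF6, which is cut in the Golgi by the site-1 protease (MBTPS1) and then acts as a transcription factor. Procollagen is among the bulkiest cargoes of this route and also needs prolyl isomerases and hydroxylases for its triple helix.

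ATF6 and XBP1 are known to act through the ER stress response element (ERSE) and a related element, ERSE-II, so these were looked for in the RefSeq promoters of the members (GRCh38.p14, 250 bases before to 50 after each annotated start, both strands). ERSE was searched as CCAAT and CCACG with 9 bases between them, and ERSE-II as ATTGG and CCACG with 1 base between them; CCAAT is the reverse complement of ATTGG, and in the members no ERSE match overlapped an ERSE-II match. Of 33 members with a promoter in the table, 11 (33.3%) held either element, against 44 of all 27305 genes (0.161%). The members were chosen as genes of this response and of secretion, so a higher share is partly built into the choice and was not tested. The matches are shown because they mark a class of members whose changes are followed in the results, each as a window of 30 bases read 5′ to 3′ on the strand of the match, with the element in capitals.
HSPA5, ERSE, chr9:125241385-125241414, minus strand: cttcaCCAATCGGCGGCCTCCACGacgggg
HSP90B1, ERSE, chr12:103930211-103930240, plus strand: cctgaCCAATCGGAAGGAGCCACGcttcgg
HSP90B1, ERSE, chr12:103930316-103930345, minus strand: aacccaCCAATCGCGCCGCACCACGcaccc
HYOU1, ERSE-II, chr11:119057370-119057399, plus strand: tcggcctgggATTGGACCACGtcacggggc
HYOU1, ERSE-II, chr11:119057264-119057293, plus strand: gcgcgtactcATTGGACCACGtcccaggcc
SDF2L1, ERSE-II, chr22:21642105-21642134, minus strand: gagggttttgATTGGTCCACGcttccgagg
CRELD2, ERSE, chr22:49918549-49918578, minus strand: tatggcCCAATCCGAGTTCGCCACGagagg
CALR, ERSE, chr19:12938379-12938408, minus strand: caccgaCCAATGATGGTCGACCACGcgtgg
CANX, ERSE, chr5:179698773-179698802, plus strand: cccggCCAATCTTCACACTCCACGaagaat
PDIA6, ERSE, chr2:10812847-10812876, minus strand: ccggaCCAATGAGCCGCAGCCACGgcttgg
ERO1B, ERSE, chr1:236282177-236282206, plus strand: cggcggCCAATGAGGCGGGACCACGcgggc
XBP1, ERSE, chr22:28800597-28800626, minus strand: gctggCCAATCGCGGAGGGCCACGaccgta
HERPUD1, ERSE-II, chr16:56932016-56932045, plus strand: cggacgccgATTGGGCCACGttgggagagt

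The promoter of HSPA5, the main Hsp70 of the ER, is shown whole as the best known example (chr9:125241294-125241593, minus strand, exact ERSE match in capitals). The match lies 66 to 48 bases before the start. Elements that differ from the searched letters were not looked for, here or in the other promoters.
HSPA5: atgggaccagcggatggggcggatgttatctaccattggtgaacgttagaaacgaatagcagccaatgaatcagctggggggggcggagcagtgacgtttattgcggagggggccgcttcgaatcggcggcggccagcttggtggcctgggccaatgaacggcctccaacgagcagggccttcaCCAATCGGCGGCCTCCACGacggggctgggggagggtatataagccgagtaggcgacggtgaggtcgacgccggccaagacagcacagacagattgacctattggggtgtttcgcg

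The libraries held 16498508 to 18752805 counts in genes, and 3 counts corresponded to 0.157 to 0.177 CPM (counts relative to the library size scaled by TMM), a floor for counting error only. YAP1 stood at 212, 212 and 205 CPM in the siNT libraries, 28, 25.7 and 25.2 after siYAP and 176, 161 and 173 after siTAZ. WWTR1, which encodes TAZ, stood at 66.1, 64.1 and 55.8 CPM in the siNT libraries, 76.2, 75.2 and 75.9 after siYAP and 8.61, 9.56 and 10.4 after siTAZ. Each targeted transcript was lowest where its siRNA was named. Of 12 stellate cell markers 10 reached a mean of 1 CPM in siNT cells, while LRAT, the enzyme that esterifies retinol for storage in quiescent stellate cells, had no count in any library and DES was at 0.269 CPM. The summed level of 6 hepatocyte markers ran from 1.9 to 2.004 CPM in siNT, 12.8 to 16 in siYAP and 0.704 to 2.13 in siTAZ libraries, nearly all of it SERPINA1, with ALB at 0 in siNT cells and TTR at 0 throughout. Of 6 leukocyte markers the sums were 13 to 14.6, 11.7 to 14.7 and 9.88 to 12.3 CPM, of 4 endothelial markers 7.47 to 8.23, 8.35 to 11.4 and 3.25 to 4.31, and of 5 epithelial markers 50.2 to 52.6, 79.9 to 83.1 and 68.5 to 72.5, where SOX9 made up most of the level. CD14 made up most of the leukocyte sums, while PTPRC fell and CSF1R rose after siYAP. The endothelial sums hide opposite changes after siYAP: PECAM1 (0.519 to 6.39 CPM) and KDR (1.29 to 3.09) rose, and CDH5 (5.21 to 0.364) and VWF (0.882 to 0.191) fell. The stellate list itself summed to 9780.4 to 9888, 5308 to 5399.8 and 14237 to 14281 CPM, most of it COL1A1, SPARC and COL3A1. These genes, PDGFRB and VIM fell after siYAP, while RGS5, TIMP1, COL1A2, ACTA2 and LOX rose. After siTAZ COL1A1, SPARC, COL3A1, COL1A2 and ACTA2 rose, and VIM, TIMP1 and LOX fell. The part of these differences in the results was not tested.

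After siYAP, ERN1, ERO1A, EDEM1, DNAJC3, SEC24D and EIF2AK3 rose by more than 1.5-fold, and ATF6 and PDIA4 fell by more than 1.5-fold; 18.5% and 16.8% of the 15560 genes tested did so. In all 21 of 36 members rose and 9 fell (edgeR's quasi-likelihood test, Benjamini-Hochberg adjusted p under 0.05), or 83.3%, against 67.1% of all genes, of which 33.8% rose and 33.4% fell. The median log2 fold change of the members was 0.21, beside 0.02 over all genes tested. Most members are abundant and abundant genes are called more readily, so the same count was taken at an average log2 CPM of at least 5. There 20 of 33 members rose and 8 fell, where 81.5% of 6788 genes were called, 36.8% higher and 44.7% lower. The siYAP libraries lay wholly above the siNT libraries for 21 members and wholly below for 10, as they did for 35.8% and 34.7% of all genes.

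After siTAZ the fold changes of the members ran from -0.56 to 0.60 on the log2 scale, against -1.13 to 1.39 after siYAP. Of 36 members 17 rose and 4 fell, or 58.3%, against 34.6% of all genes, of which 16.4% rose and 18.2% fell, and the median was 0.09 beside 0.01. At an average log2 CPM of at least 5, 16 of 33 members rose and 4 fell, where 51.9% of genes were called, 22.7% higher and 29.2% lower. The siTAZ libraries lay wholly above siNT for 19 members and wholly below for 4, as for 21.8% and 22.8% of all genes. DNAJB9 was the only member past 1.5-fold, a size that 3.38% of all genes passed upward and 4.08% downward. Tested against a fold of 1.5 (edgeR's glmTreat), 0 of the 36 passed after siTAZ, with 0 at an unadjusted p under 0.05, beside 342 of all 15560 genes. After siYAP 6 of the 36 passed, beside 3852 of all 15560 genes. Both comparisons use the same siNT libraries, so their values are given side by side, and the knockdowns are also set against each other directly.

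**Figure D1:**
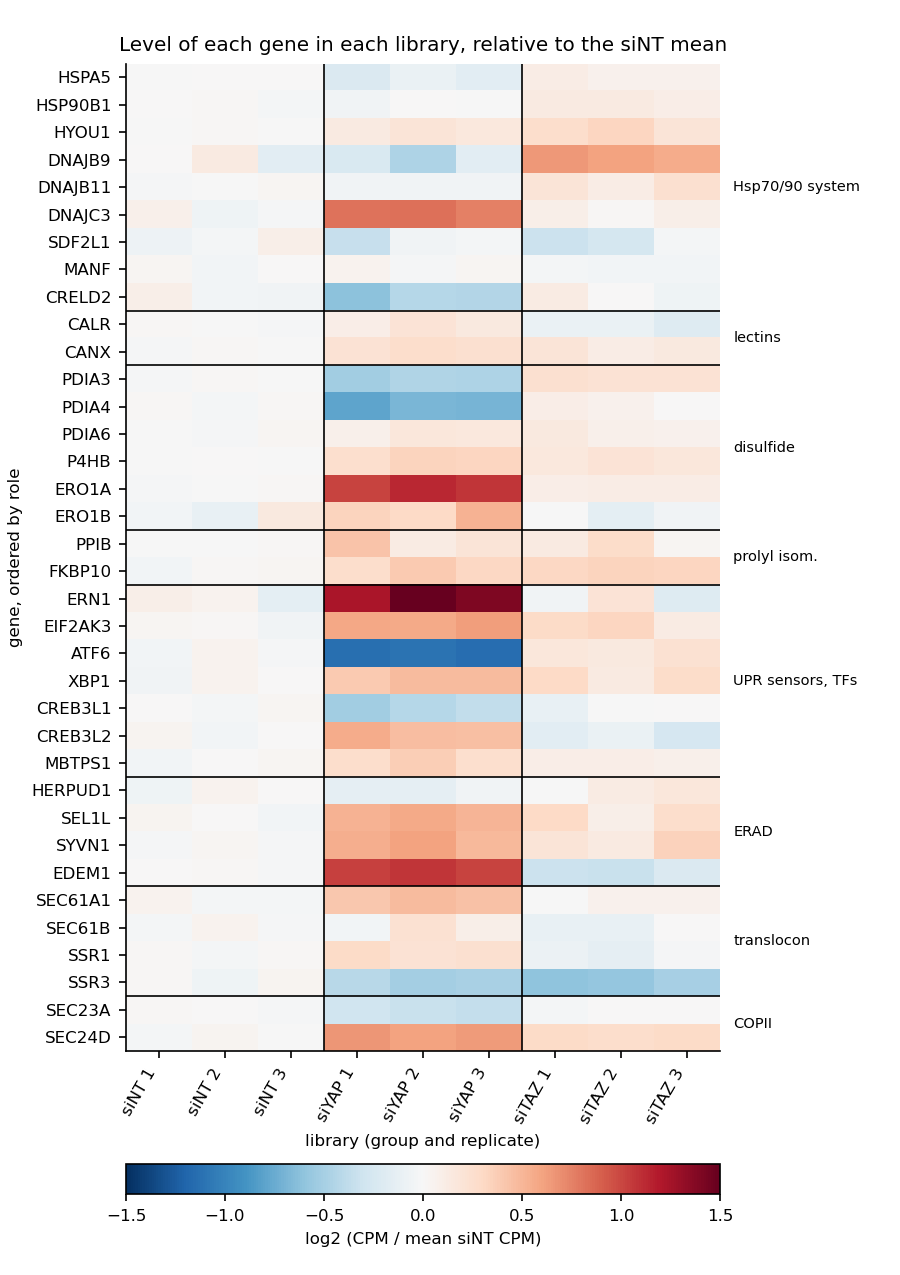
Level of each of the 36 genes (rows, ordered by role) in each of the 9 libraries (columns), as log2 of the CPM over the mean siNT CPM; red is higher and blue lower. The siYAP columns hold the strongest colours, with ERN1, ERO1A, EDEM1 and DNAJC3 high and ATF6 and PDIA4 low in all 3 libraries.

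In control cells the members spanned a wide range of levels. Levels of different genes were set side by side per kb of merged exons. This scale is rough, since it joins the exons of all annotated transcripts and reads that fell in several genes were left out. On it the siNT mean was 404 CPM for CALR, 237 for PDIA3, 229 for HSPA5 and 178 for CANX, and the 6 most abundant members were all chaperones or disulfide isomerases. At the other end stood the sensors ERN1 at 1.9 and EIF2AK3 at 5.96 and the oxidase ERO1B at 1.25. The translocon subunits SEC61A1 and SSR3 lay at 112 and 108 CPM per kb, SEC23A at 45.1 and SEC24D at 13.1. Together the members took 1.02% ± 0.00252 of the gene counts after siNT (SD, n = 3), 1.15% ± 0.0171 after siYAP and 1.09% ± 0.0111 after siTAZ.

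**Figure D2:**
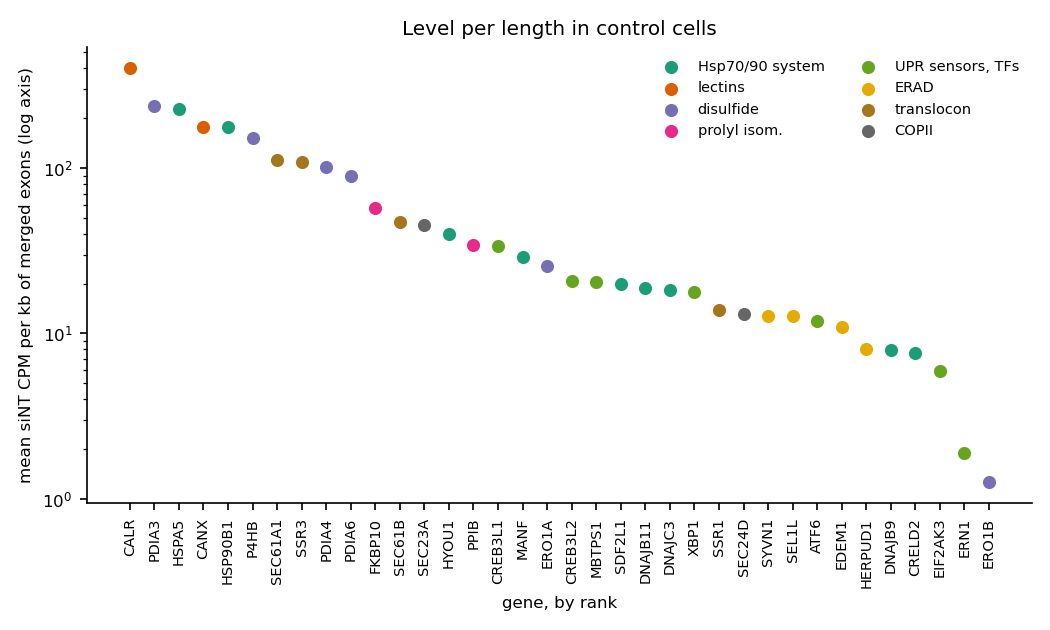
Mean siNT level of each of the 36 genes per kb of merged exons (vertical log axis, CPM per kb) in order of rank, coloured by role. CALR, PDIA3 and HSPA5 lead at 404, 237 and 229, and ERN1 and ERO1B are lowest at 1.9 and 1.25.

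Of the 7 sensors, transcription factors and their protease, 5 were higher and 2 lower after siYAP. The shares were 33.8% and 33.4% of all genes tested, and 36.8% and 44.7% of genes at an average log2 CPM of 5 or more. ERN1, the kinase and endonuclease IRE1, stood at 22, 21.4 and 18.6 CPM in the siNT libraries, 48.4, 59.7 and 54.7 after siYAP and 19.9, 23.8 and 18.1 after siTAZ. All siYAP libraries lay above all others, and the siNT and siTAZ libraries overlapped. ERN1 rose 2.63-fold (log2 1.39 ± 0.09, adjusted p = 1.89e-20) after siYAP and had a log2 fold change of -0.00 ± 0.10 that did not pass (adjusted p = 0.992) after siTAZ. EIF2AK3, the kinase PERK, measured 33.1, 32.8 and 31.3 CPM in the siNT libraries, 48.4, 47.9 and 50.02 after siYAP and 39.6, 40.7 and 35.2 after siTAZ, with no overlap between any groups. It rose 1.5-fold (log2 0.59 ± 0.07, adjusted p = 7.37e-11) after siYAP and rose 1.19-fold (log2 0.25 ± 0.07, adjusted p = 0.00495) after siTAZ.

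ATF6, the sensor that is itself a transcription factor, moved the other way and was the member that fell most. It measured 91.3, 97.2 and 92.6 CPM in the siNT libraries, 42.6, 43.4 and 42.3 after siYAP and 106, 104 and 109 after siTAZ. It fell 2.19-fold (log2 -1.13 ± 0.05, adjusted p = 4.52e-28) after siYAP and rose 1.14-fold (log2 0.18 ± 0.05, adjusted p = 0.00252) after siTAZ, so the siYAP libraries held less than 50% of the siNT level and the siTAZ libraries lay slightly above it. MBTPS1, the site-1 protease that cuts ATF6, rose 1.23-fold (log2 0.30 ± 0.04, adjusted p = 1.77e-10) after siYAP, to 256 ± 11.7 from 208 ± 4.85 CPM (SD, n = 3). After siTAZ MBTPS1 had a log2 fold change of 0.09 ± 0.04 that did not pass (adjusted p = 0.0586), a value that passed without siYAP replicate 1 (adjusted p = 0.0445), with only the compared groups (0.0362) and under upper-quartile scaling (0.0184).

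XBP1, the transcript that IRE1 splices, stood at 51.8, 55.8 and 53.9 CPM in the siNT libraries, 70.8, 74.6 and 75 after siYAP and 66.2, 58.9 and 65.2 after siTAZ. It rose 1.36-fold (log2 0.45 ± 0.06, adjusted p = 8.84e-10) after siYAP and rose 1.18-fold (log2 0.24 ± 0.06, adjusted p = 0.00108) after siTAZ, and no library of one group lay within the range of another. The gene counts do not separate spliced from unspliced XBP1, so neither form was measured. In bulk RNA, more RNA per cell and more cells that express a gene cannot be told apart, here or for any member.

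CREB3L1 and CREB3L2 are ATF6-like factors of the ER membrane linked to collagen transcription and to COPII genes in secretory cells. They went in opposite directions after siYAP. CREB3L1 stood at 137, 134 and 139.8 CPM in the siNT libraries, 95.8, 102 and 106 after siYAP and 127, 136 and 137 after siTAZ, with the siYAP libraries below all others. It fell 1.35-fold (log2 -0.44 ± 0.05, adjusted p = 4.04e-13) after siYAP and had a log2 fold change of -0.04 ± 0.04 that did not pass (adjusted p = 0.563) after siTAZ. CREB3L2 stood at 186, 176 and 182 CPM in the siNT libraries, 267, 251 and 248 after siYAP and 162, 169 and 153 after siTAZ, and its groups did not overlap. It rose 1.41-fold (log2 0.49 ± 0.04, adjusted p = 2.06e-17) after siYAP and fell 1.12-fold (log2 -0.17 ± 0.04, adjusted p = 7.48e-04) after siTAZ.

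**Figure D3:**
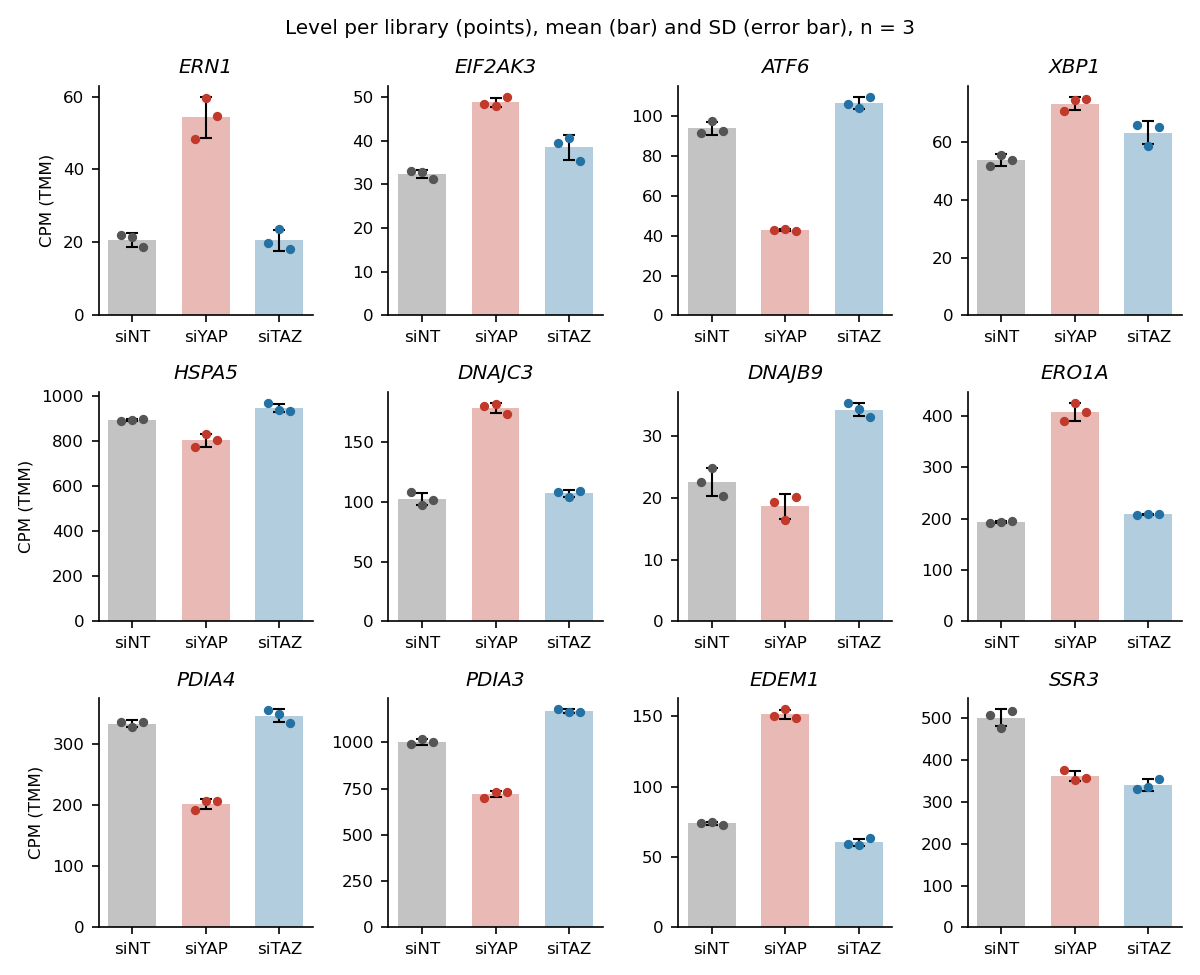
CPM of 12 genes in each library (points), with the mean (bar) and SD (error bar) of the 3 libraries of each group; each panel has its own vertical axis from 0. ERN1, ERO1A, EDEM1 and DNAJC3 are highest after siYAP, ATF6 and PDIA4 lowest after siYAP, DNAJB9 highest after siTAZ, and SSR3 is lower after both siRNAs.

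The 9 genes of the lumenal Hsp70 and Hsp90 system, which holds nascent proteins until they fold, summed to 2389 ± 13.4 CPM in siNT cells (SD, n = 3), 2381 ± 55.2 in siYAP cells and 2604 ± 36.4 in siTAZ cells, with 2 higher and 3 lower after siYAP and 5 higher and 0 lower after siTAZ (edgeR; 0 lower at an unadjusted p under 0.05 and 0 by DESeq2). Over all genes tested 33.8% were higher and 33.4% lower after siYAP, and 16.4% and 18.2% after siTAZ. For genes at an average log2 CPM of 5 or more the shares were 36.8% and 44.7% after siYAP, and 22.7% and 29.2% after siTAZ. HSPA5 (BiP), the usual read-out of ER stress, stood at 889, 895 and 897 CPM in the siNT libraries, 772, 831 and 804 after siYAP and 969, 937 and 934 after siTAZ, with no overlap between groups. It fell 1.11-fold (log2 -0.16 ± 0.03, adjusted p = 8.47e-06) after siYAP. After siTAZ it rose 1.06-fold (log2 0.08 ± 0.03, adjusted p = 0.0261), a call lost on leaving out siNT replicate 1, 2 or 3 or siTAZ replicate 1 (adjusted p = 0.0908, 0.079, 0.0666 and 0.141) and without the filter on low counts (0.0687). HSP90B1 (GRP94), the ER Hsp90, had a log2 fold change of -0.02 ± 0.03 that did not pass (adjusted p = 0.634) after siYAP and rose 1.09-fold (log2 0.13 ± 0.03, adjusted p = 4.94e-04) after siTAZ. HYOU1 (GRP170), an exchange factor for BiP, rose 1.12-fold (log2 0.17 ± 0.04) after siYAP and rose 1.2-fold (log2 0.26 ± 0.03) after siTAZ.

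The co-chaperones and small ER proteins assist this system. DNAJC3 (p58IPK), a J-protein of BiP, stood at 108, 97.6 and 101 CPM in the siNT libraries, 179.9, 182 and 173 after siYAP and 108, 104 and 109 after siTAZ, so that only siYAP set it apart. It rose 1.74-fold (log2 0.80 ± 0.04, adjusted p = 4.34e-25) after siYAP and had a log2 fold change of 0.06 ± 0.05 that did not pass (adjusted p = 0.289) after siTAZ. DNAJB9 (ERdj4), the J-protein known to hold IRE1 inactive through BiP, stood at 22.6, 24.8 and 20.2 CPM in the siNT libraries, 19.3, 16.3 and 20.2 after siYAP and 35.3, 34.3 and 33.1 after siTAZ, with all siTAZ libraries above the rest and the lowest siNT and highest siYAP libraries nearly equal. It rose 1.52-fold (log2 0.60 ± 0.09, adjusted p = 8.40e-08) after siTAZ. After siYAP it fell 1.21-fold (log2 -0.28 ± 0.09, adjusted p = 0.00772), a call lost without siNT replicate 2 (adjusted p = 0.0702) or siYAP replicate 2 (0.0888). DNAJB11 (ERdj3), a secreted J-protein, had a log2 fold change of -0.05 ± 0.05 that did not pass (adjusted p = 0.33) after siYAP and rose 1.14-fold (log2 0.18 ± 0.05, adjusted p = 8.73e-04) after siTAZ.

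CRELD2, an ER protein strongly induced by ER stress in other settings, stood at 41.9, 38.3 and 37.8 CPM in the siNT libraries, 25.6, 29.2 and 29 after siYAP and 42.9, 39.4 and 37.7 after siTAZ, lowest in the siYAP libraries. It fell 1.41-fold (log2 -0.49 ± 0.08, adjusted p = 9.08e-08) after siYAP and had a log2 fold change of 0.03 ± 0.08 that did not pass (adjusted p = 0.834) after siTAZ. MANF, a secreted factor of the same kind, had a log2 fold change of 0.02 ± 0.05 that did not pass (adjusted p = 0.736) after siYAP and had a log2 fold change of -0.04 ± 0.06 that did not pass (adjusted p = 0.653) after siTAZ. SDF2L1, a partner of ERdj3, had a log2 fold change of -0.14 ± 0.10 that did not pass (adjusted p = 0.233) after siYAP. After siTAZ SDF2L1 had a log2 fold change of -0.20 ± 0.10 that did not pass (adjusted p = 0.123), a value that passed without siTAZ replicate 3 (adjusted p = 0.0375).

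Calnexin (CANX) and calreticulin (CALR) bind the sugars of newly made glycoproteins. CANX, the membrane-bound form, stood at 1101, 1123 and 1110.3 CPM in the siNT libraries, 1296, 1339 and 1317 after siYAP and 1275, 1204 and 1229 after siTAZ, with the siNT libraries lowest. It rose 1.18-fold (log2 0.24 ± 0.03, adjusted p = 2.60e-11) after siYAP and rose 1.11-fold (log2 0.15 ± 0.03, adjusted p = 1.36e-05) after siTAZ. CALR, the soluble form, stood at 1114, 1094 and 1083 CPM in the siNT libraries, 1177, 1264 and 1219 after siYAP and 1026, 1023 and 959 after siTAZ, in the order siYAP, siNT, siTAZ with no overlap. It rose 1.11-fold (log2 0.15 ± 0.03, adjusted p = 1.10e-05) after siYAP and fell 1.09-fold (log2 -0.13 ± 0.03, adjusted p = 4.20e-04) after siTAZ.

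Of the 6 genes of disulfide chemistry 4 were higher and 2 lower after siYAP, where 33.8% and 33.4% of all genes tested were. At an average log2 CPM of 5 or more those shares were 36.8% and 44.7%. ERO1A, the oxidase that recharges protein disulfide isomerase, stood at 192, 193 and 196 CPM in the siNT libraries, 390.1, 425 and 408 after siYAP and 207, 209 and 209 after siTAZ, with the siYAP libraries far above the rest and the siTAZ libraries just above siNT. It rose 2.11-fold (log2 1.07 ± 0.04, adjusted p = 3.08e-36) after siYAP. After siTAZ it rose 1.08-fold (log2 0.11 ± 0.04, adjusted p = 0.0176), a call lost without siNT replicate 1, siNT replicate 2 or siTAZ replicate 2 (adjusted p = 0.0678, 0.0652 and 0.0531). ERO1B, its paralog and the least abundant member, measured 6.72 ± 0.621 CPM after siNT and 8.78 ± 0.749 after siYAP (SD, n = 3). It rose 1.3-fold (log2 0.38 ± 0.16, adjusted p = 0.0278), a call lost without siNT replicate 1 or 2 or siYAP replicate 3 (adjusted p = 0.078, 0.113 and 0.12) and without the filter on low counts (0.0663).

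The isomerases themselves differed. PDIA4 (ERp72) stood at 336, 327 and 336 CPM in the siNT libraries, 192, 206 and 206 after siYAP and 356, 348 and 334 after siTAZ, with every siYAP library far below the rest. It fell 1.65-fold (log2 -0.73 ± 0.04, adjusted p = 3.84e-27) after siYAP and had a log2 fold change of 0.06 ± 0.04 that did not pass (adjusted p = 0.236) after siTAZ. PDIA3 (ERp57), which works with calnexin and calreticulin, stood at 990.2, 1020.5 and 1002 CPM in the siNT libraries, 702, 732 and 731 after siYAP and 1181, 1164 and 1162 after siTAZ, with no overlap between groups. It fell 1.39-fold (log2 -0.48 ± 0.03, adjusted p = 1.02e-22) after siYAP and rose 1.16-fold (log2 0.22 ± 0.03, adjusted p = 5.04e-09) after siTAZ. P4HB, which is both protein disulfide isomerase and the beta subunit of collagen prolyl 4-hydroxylase, stood at 806, 808 and 806 CPM in the siNT libraries, 963, 1017 and 1011 after siYAP and 903, 930.3 and 908 after siTAZ, lowest in siNT cells. It rose 1.24-fold (log2 0.31 ± 0.03, adjusted p = 3.53e-14) after siYAP and rose 1.13-fold (log2 0.18 ± 0.03, adjusted p = 1.06e-06) after siTAZ. PDIA6 (P5) rose 1.1-fold (log2 0.14 ± 0.03, adjusted p = 3.73e-04) after siYAP. After siTAZ PDIA6 rose 1.07-fold (log2 0.10 ± 0.03, adjusted p = 0.0226). That call was lost without siNT replicate 1, siNT replicate 2 or siTAZ replicate 1 (adjusted p = 0.0784, 0.1002 and 0.16) and without the filter on low counts (0.0533).

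Of the prolyl isomerases, FKBP10 (FKBP65), a chaperone of the procollagen triple helix, stood at 236, 246 and 248 CPM in the siNT libraries, 293, 318 and 301 after siYAP and 303, 306 and 305 after siTAZ, and both knockdown groups lay above siNT. It rose 1.25-fold (log2 0.32 ± 0.04, adjusted p = 6.08e-12) after siYAP and rose 1.25-fold (log2 0.32 ± 0.04, adjusted p = 2.65e-11) after siTAZ, and the difference between the knockdowns was 0.00 ± 0.04 on the log2 scale (adjusted p = 0.963). PPIB (cyclophilin B), the isomerase of the prolyl 3-hydroxylation complex, rose 1.19-fold (log2 0.26 ± 0.06, adjusted p = 3.86e-04) after siYAP. After siTAZ PPIB had a log2 fold change of 0.15 ± 0.06 that did not pass (adjusted p = 0.0618), a value that passed without siYAP replicate 1 (adjusted p = 0.0338) or siTAZ replicate 3 (0.0137), with only the compared groups (0.0338) and under upper-quartile scaling (0.0415). The exons of PPIB overlap those of SNX22 on the opposite strand over 27.2% of their length, those of PDIA6 overlap ATP6V1C2 over 25.2% and those of PDIA3 overlap ELL3 over 14.8% (GENCODE 29). An antisense gene overlaps EIF2AK3 over 14.4% of its exons. These were the members that share 10% or more of their exon length with 1 other gene; DNAJB11 shares 6.65% and 8.65% with 2 genes, and SYVN1 6.48% and 7.24%. Whether reads were assigned by strand was not given in the sources used here, so the counts of these 6 members are uncertain.

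Of the 4 ERAD genes 3 rose after siYAP, where 33.8% of all genes tested did, and 36.8% of those at an average log2 CPM of 5 or more. Their summed level was 307 ± 4.69 CPM in siNT cells (SD, n = 3), 468 ± 10.4 in siYAP cells and 328 ± 17.5 in siTAZ cells. EDEM1, which draws misfolded glycoproteins into degradation, stood at 74, 74.7 and 73 CPM in the siNT libraries, 149.99, 155 and 149 after siYAP and 59.3, 58.4 and 63.6 after siTAZ, highest after siYAP and lowest after siTAZ. It rose 2.05-fold (log2 1.03 ± 0.05, adjusted p = 1.16e-28) after siYAP and fell 1.22-fold (log2 -0.29 ± 0.05, adjusted p = 4.76e-06) after siTAZ. SYVN1 (HRD1), the ubiquitin ligase of the ER membrane, stood at 69.1, 71.6 and 69.2 CPM in the siNT libraries, 102, 107 and 98.2 after siYAP and 79.9, 76.9 and 89 after siTAZ, with siYAP highest and siNT lowest. It rose 1.46-fold (log2 0.55 ± 0.05, adjusted p = 3.70e-14) after siYAP and rose 1.17-fold (log2 0.23 ± 0.05, adjusted p = 5.79e-04) after siTAZ. SEL1L, its partner, rose 1.45-fold (log2 0.53 ± 0.04) after siYAP and rose 1.16-fold (log2 0.22 ± 0.04) after siTAZ. HERPUD1, a scaffold of the same complex that is strongly induced in ER stress, had a log2 fold change of -0.11 ± 0.07 that did not pass (adjusted p = 0.175) after siYAP and had a log2 fold change of 0.10 ± 0.07 that did not pass (adjusted p = 0.2998) after siTAZ.

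The translocon and its partner complex bring new chains into the ER. SEC61A1, the channel subunit, stood at 543, 517 and 517 CPM in the siNT libraries, 697, 731 and 711 after siYAP and 525, 550.1 and 548 after siTAZ, highest after siYAP. It rose 1.36-fold (log2 0.44 ± 0.03, adjusted p = 2.12e-19) after siYAP and had a log2 fold change of 0.04 ± 0.03 that did not pass (adjusted p = 0.346) after siTAZ. SEC61B, a small subunit of the channel, had a log2 fold change of 0.10 ± 0.06 that did not pass (adjusted p = 0.167) after siYAP, a value that passed without siYAP replicate 1 (adjusted p = 0.0398), and had a log2 fold change of -0.07 ± 0.06 that did not pass (adjusted p = 0.438) after siTAZ. SSR1 and SSR3 encode subunits of the translocon-associated TRAP complex. SSR1 rose 1.19-fold (log2 0.25 ± 0.04, adjusted p = 1.85e-07) after siYAP and had a log2 fold change of -0.08 ± 0.04 that did not pass (adjusted p = 0.131) after siTAZ. SSR3 stood at 508, 477 and 517 CPM in the siNT libraries, 376, 352 and 357 after siYAP and 329.7, 335 and 355 after siTAZ, with every siNT library above every knockdown library. It fell 1.38-fold (log2 -0.47 ± 0.04, adjusted p = 9.68e-19) after siYAP and fell 1.47-fold (log2 -0.56 ± 0.04, adjusted p = 3.92e-21) after siTAZ, the largest fall among the members there.

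SEC23A and SEC24D form the inner COPII coat, in which SEC24 subunits select cargo. SEC24D stood at 128, 134 and 129 CPM in the siNT libraries, 205, 198 and 203 after siYAP and 159, 156 and 159 after siTAZ, with no overlap between groups. It rose 1.55-fold (log2 0.63 ± 0.04, adjusted p = 2.42e-22) after siYAP and rose 1.21-fold (log2 0.28 ± 0.04, adjusted p = 4.12e-08) after siTAZ. SEC23A stood at 408, 404 and 398 CPM in the siNT libraries, 329, 319 and 315 after siYAP and 394, 403 and 406 after siTAZ, lowest after siYAP. It fell 1.26-fold (log2 -0.33 ± 0.03, adjusted p = 1.64e-13) after siYAP and had a log2 fold change of -0.01 ± 0.03 that did not pass (adjusted p = 0.888) after siTAZ.

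**Figure D4:**
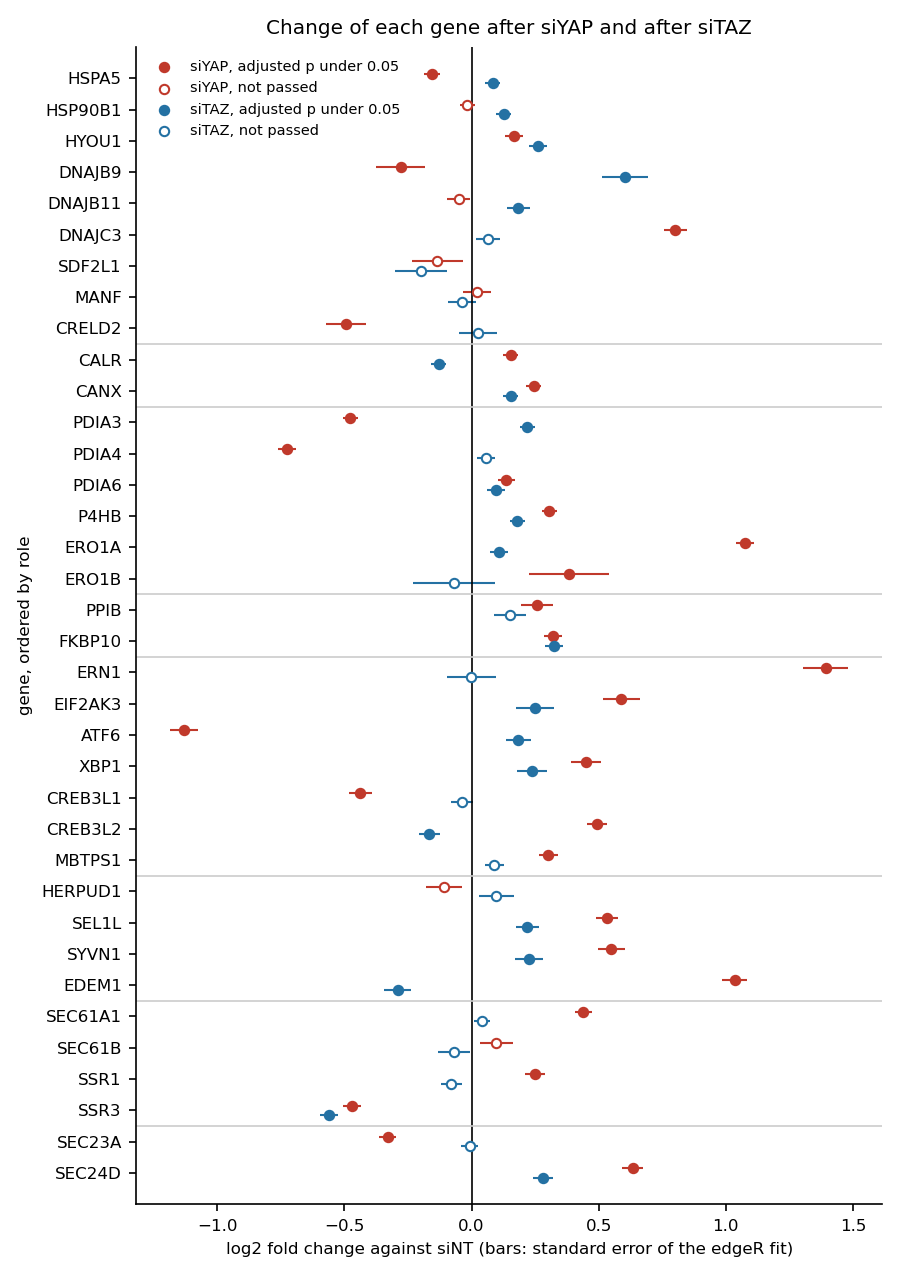
Log2 fold change against siNT (horizontal axis) of each of the 36 genes after siYAP (red) and after siTAZ (blue), with bars for the standard error of the edgeR fit; filled points passed at an adjusted p under 0.05 and open points did not. The siYAP values run from -1.13 for ATF6 to 1.39 for ERN1, and the siTAZ values from -0.56 for SSR3 to 0.60 for DNAJB9.

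Set against each other directly, the knockdowns differed for most members: 12 were higher and 19 lower after siTAZ than after siYAP, where 66.2% of all genes differed, 33.0% higher and 33.2% lower. Among abundant genes (average log2 CPM 5 or more) the counts were 11 and 18 of 33 members, where 80.8% of genes were called, 42.6% higher and 38.1% lower. The siTAZ libraries lay wholly above the siYAP libraries for 11 members and wholly below for 18, as for 33.7% and 34.6% of all genes. Of the members 4 were higher and 5 lower by more than 1.5-fold, beside 16.3% and 17.5% of all genes. The genes that siTAZ left higher than siYAP included ATF6 (2.49-fold, adjusted p = 1.17e-31), DNAJB9 (1.84-fold, adjusted p = 2.79e-13), PDIA4 (1.72-fold, adjusted p = 8.67e-29) and PDIA3 (1.62-fold, adjusted p = 5.60e-31). Those left lower included ERN1 (2.63-fold, adjusted p = 1.62e-20), EDEM1 (2.51-fold, adjusted p = 6.25e-34), ERO1A (1.95-fold, adjusted p = 7.53e-34) and DNAJC3 (1.67-fold, adjusted p = 2.07e-23). All 4 ERAD genes differed, 3 lower after siTAZ, and all 4 translocon genes were lower after siTAZ, with SSR3 and SEC61B close to the threshold (adjusted p = 0.0228 and 0.0171). The call of SSR3 was lost without the filter on low counts (adjusted p = 0.134) and on leaving out any of the siNT replicates, siYAP replicate 1, siTAZ replicate 1 or siTAZ replicate 2 (adjusted p = 0.0511 to 0.201), that of SEC61B without siYAP replicate 2, siTAZ replicate 1 or siTAZ replicate 2 (0.0796 to 0.253), those of HYOU1 and CANX without siTAZ replicate 2 (0.106 and 0.0945) and that of ERO1B without siYAP replicate 3 (0.0572). CANX was also lost without the filter (0.064), and PPIB, not called, passed without siYAP replicate 2 or siTAZ replicate 2 (0.0275 and 0.0289).

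The members were also described by whether a promoter window held an ERSE or ERSE-II match. After siYAP, against siNT, 6 of the 11 with a match rose and 2 fell. Their log2 fold changes ran from -0.49 (CRELD2) to 0.45 (XBP1), and 0 of them changed by more than 1.5-fold. Among the 22 members with a promoter but no exact match 13 rose and 6 fell after siYAP. The range was -1.13 (ATF6) to 1.39 (ERN1), and 7 changed by more than 1.5-fold. Over all genes tested 33.8% rose and 33.4% fell after siYAP, and 18.5% and 16.8% did so by more than 1.5-fold. The medians were 0.14 and 0.28, and the difference between these classes, which differ in size, was not tested. After siTAZ 6 of the 11 rose and 1 fell (median 0.10), and of the 22 others 8 rose and 3 fell (median 0.06), where 16.4% and 18.2% of all genes did. The shorter letters TGACGTG, the core of another unfolded protein response element, were present for HYOU1, SEC61A1, SSR3 and SEC23A and for 2.4% of all genes; in HYOU1 they overlap an ERSE-II match. FKBP10, PDIA3 and SEC24D had no promoter entry.

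Other genes of the same pathways were followed in lists of 205 genes, of which 204 were tested. These lists too were chosen with earlier results known, which limits their counts in the same way as those of the members. For scale, 33.8% of all genes tested rose and 33.4% fell after siYAP, 16.4% and 18.2% did so after siTAZ, and the medians over all genes were 0.02 after siYAP and 0.01 after siTAZ. Abundant genes (average log2 CPM 5 or more) were called more often, 36.8% higher and 44.7% lower after siYAP, and 22.7% and 29.2% after siTAZ. The PERK branch, ATF4, CHOP and their targets, had 9 of 13 higher and 1 lower after siYAP (median log2 fold change 0.95). After siTAZ, 6 of 13 were higher and 1 lower (median 0.20). Those higher include ASNS, at only 0.79 CPM in siNT cells, and another gene overlaps 44.6% of its exon length on the same strand. SESN2, a stress-induced regulator of mTORC1, rose 5.77-fold (log2 2.53 ± 0.07) after siYAP and rose 1.91-fold (log2 0.93 ± 0.08) after siTAZ. DDIT3 (CHOP), the death-associated factor of the pathway, stood at 4.89, 5.29 and 5.72 CPM in the siNT libraries, 17, 16.6 and 17.1 after siYAP and 5.58, 7.92 and 5.36 after siTAZ, and only siYAP set it apart. It rose 3.18-fold (log2 1.67 ± 0.15, adjusted p = 4.89e-16) after siYAP and had a log2 fold change of 0.25 ± 0.16 that did not pass (adjusted p = 0.249) after siTAZ. PPP1R15A (GADD34), which restores translation, rose 1.91-fold (log2 0.94 ± 0.04) after siYAP and fell 1.13-fold (log2 -0.18 ± 0.04) after siTAZ. ATF4, whose activity is set mainly by translation, fell 1.36-fold (log2 -0.44 ± 0.04, adjusted p = 3.10e-15) after siYAP and had a log2 fold change of -0.03 ± 0.04 that did not pass (adjusted p = 0.566) after siTAZ. CHAC1, a glutathione-degrading enzyme downstream of ATF4, rose 1.65-fold (log2 0.73 ± 0.15) after siYAP and rose 2.08-fold (log2 1.06 ± 0.15) after siTAZ. SESN2 is also known as a p53 target. The exons of DDIT3 overlap MARS1 on the opposite strand over 27.2% of their length, so its count is uncertain in the same way as that of PPIB. The same limit is given beside the other named genes of these lists that share 10% or more of their exon length with 1 other gene. It is not given for genes that are only counted.

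The remaining ER chaperones and foldases had 15 of 28 higher and 9 lower after siYAP (median log2 fold change 0.09). After siTAZ, 12 of 28 were higher and 2 lower (median 0.07). CALU (calumenin), a calcium-binding ER protein, stood at 1249.7, 1239.99 and 1215 CPM in the siNT libraries, 426, 421 and 417 after siYAP and 1269, 1253 and 1276 after siTAZ, with every siYAP library far below the rest. It fell 2.93-fold (log2 -1.55 ± 0.03, adjusted p = 8.11e-50) after siYAP and had a log2 fold change of 0.04 ± 0.03 that did not pass (adjusted p = 0.361) after siTAZ. The thioredoxin-like TMX3 was 2.9-fold lower after siYAP and at a log2 fold change of 0.07 that did not pass after siTAZ (adjusted p = 0.216). ERP29, an ER folding factor, was 1.4-fold higher after siYAP and 1.11-fold higher after siTAZ. ERP44, which retains ERO1 in the ER, was 1.49-fold higher after siYAP and 1.33-fold higher after siTAZ. The prolyl isomerase FKBP9 was 1.56-fold lower after siYAP and 1.67-fold higher after siTAZ, called in opposite directions. The sulfhydryl oxidase QSOX1 was 1.1-fold lower after siYAP and 1.29-fold lower after siTAZ. An antisense gene overlaps 17.5% of the exon length of ERP29.

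The remaining ERAD components had 13 of 25 higher and 9 lower after siYAP (median log2 fold change 0.19). After siTAZ, 9 of 25 were higher and 5 lower (median 0.11). UBE2J1, the ubiquitin-conjugating enzyme that serves HRD1, fell 3.56-fold (log2 -1.83 ± 0.05, adjusted p = 1.04e-41) after siYAP, from 158 ± 0.971 to 44.4 ± 2.66 CPM (SD, n = 3), in the same libraries in which SYVN1 and SEL1L rose. It fell 1.18-fold (log2 -0.24 ± 0.04) after siTAZ. The mannosidase MAN1B1 was 1.58-fold higher after siYAP and at a log2 fold change of 0.05 that did not pass after siTAZ (adjusted p = 0.495). The ligase MARCHF6 was 1.41-fold higher after siYAP and 1.18-fold lower after siTAZ. FAF2 was 1.52-fold lower after siYAP and 1.11-fold higher after siTAZ. EDEM3, a relative of EDEM1, was 1.27-fold lower after siYAP and 1.41-fold higher after siTAZ. All 3 were called in opposite directions. DERL1, a membrane component of the pathway, was at a log2 fold change of 0.01 that did not pass after siYAP (adjusted p = 0.929) and 1.32-fold higher after siTAZ. The ATPase VCP, which pulls proteins out of the membrane, was 1.34-fold lower after siYAP and 1.27-fold lower after siTAZ.

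Other regulators of the response had 4 of 13 higher and 5 lower after siYAP (median log2 fold change -0.09). After siTAZ, 4 of 13 were higher and 4 lower (median -0.06). MBTPS2, the site-2 protease that completes the release of ATF6, stood at 48.2, 46.8 and 40.9 CPM in the siNT libraries, 14.8, 15.9 and 14.6 after siYAP and 53.8, 47.1 and 49.4 after siTAZ, with the siYAP libraries far below the others. It fell 2.99-fold (log2 -1.58 ± 0.08, adjusted p = 3.70e-26) after siYAP and had a log2 fold change of 0.15 ± 0.07 that did not pass (adjusted p = 0.119) after siTAZ, so that in the siYAP libraries ATF6 and MBTPS2 fell while MBTPS1 rose. YY2 overlaps 12.2% of the exon length of MBTPS2 on the same strand. FICD, which modifies BiP, rose 1.92-fold (log2 0.94 ± 0.09) after siYAP and rose 1.37-fold (log2 0.46 ± 0.09) after siTAZ. TMBIM6, an ER membrane protein that restrains IRE1, fell 1.57-fold after siYAP and rose 1.1-fold after siTAZ.

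Targeting, translocation and N-glycosylation genes had 21 of 31 higher and 7 lower after siYAP (median log2 fold change 0.30). After siTAZ, 12 of 31 were higher and 7 lower (median 0.11). The signal recognition particle receptor SRPRA rose 1.64-fold after siYAP and 1.27-fold after siTAZ. The oligosaccharyltransferase subunit RPN1 was 1.44-fold higher after siYAP and 1.1-fold higher after siTAZ. DDOST, of the same complex, was 1.37-fold higher after siYAP and 1.23-fold higher after siTAZ. PINK1-AS overlaps 15.7% of the exon length of DDOST on the same strand. TRAM2, a translocon partner linked to collagen I synthesis, fell 1.69-fold (log2 -0.76 ± 0.03) after siYAP and fell 1.28-fold (log2 -0.36 ± 0.03) after siTAZ. MAGT1 was 1.77-fold lower after siYAP and 1.23-fold lower after siTAZ.

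The remaining COPII and ER exit genes had 18 of 36 higher and 7 lower after siYAP (median log2 fold change 0.11). After siTAZ, 10 of 36 were higher and 8 lower (median 0.05). SAR1A, the GTPase that starts COPII assembly, stood at 129, 117 and 126 CPM in the siNT libraries, 149, 144 and 141 after siYAP and 51.4, 50.9 and 55.1 after siTAZ, with the siTAZ libraries below 50% of siNT. It fell 2.37-fold (log2 -1.24 ± 0.05, adjusted p = 1.22e-30) after siTAZ and rose 1.17-fold (log2 0.22 ± 0.05, adjusted p = 2.82e-05) after siYAP. Its paralog SAR1B was 1.41-fold lower after siTAZ and at a log2 fold change of -0.12 that did not pass after siYAP (adjusted p = 0.0641). SEC23B, the paralog of SEC23A, was 1.83-fold lower after siYAP and 1.21-fold lower after siTAZ. The outer coat gene SEC31A was 1.42-fold higher after siYAP and 1.1-fold higher after siTAZ. MIA3 (TANGO1), which loads procollagen into COPII carriers, rose 1.32-fold (log2 0.40 ± 0.06, adjusted p = 3.29e-09) after siYAP. After siTAZ MIA3 rose 1.11-fold (log2 0.16 ± 0.06, adjusted p = 0.0249), a call lost without siNT replicate 2 or 3 or siTAZ replicate 1 or 2 (adjusted p = 0.0646 to 0.153). MIA2, its partner, had a log2 fold change of -0.14 ± 0.11 that did not pass (adjusted p = 0.23) after siYAP. After siTAZ MIA2 had a log2 fold change of 0.24 ± 0.10 that did not pass (adjusted p = 0.0609), and it passed without siNT replicate 2 (adjusted p = 0.027), with only the compared groups (0.0489) and under upper-quartile scaling (0.0421).

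COPI and Golgi transport genes had 10 of 20 higher and 6 lower after siYAP (median log2 fold change 0.12). After siTAZ, 7 of 20 were higher and 3 lower (median 0.07). The small GTPase RAB1A was 1.78-fold higher after siYAP and 1.07-fold higher after siTAZ, the latter at adjusted p = 0.0461. CEP68 overlaps 22.9% of the exon length of RAB1A on the opposite strand. RAB6A was 1.62-fold higher after siYAP and 1.11-fold higher after siTAZ. The coatomer subunit COPG2 was 1.81-fold lower after siYAP and at a log2 fold change of 0.04 that did not pass after siTAZ (adjusted p = 0.708). As a contrast outside the ER, the cytosolic heat shock genes had 2 of 13 higher and 10 lower after siYAP (median log2 fold change -0.23). After siTAZ, 0 of 13 were higher and 10 lower (median -0.22), where 0 were higher at an unadjusted p under 0.05 and 0 by DESeq2. The small heat shock protein HSPB1 was 1.95-fold lower after siYAP and 1.17-fold lower after siTAZ. HSP90AB1 was 1.57-fold lower after siYAP and 1.2-fold lower after siTAZ. HSP90AA1 was 1.55-fold lower after siYAP and 1.28-fold lower after siTAZ. The co-chaperone BAG3 was 1.29-fold lower after siYAP and 1.55-fold lower after siTAZ.

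Procollagen hydroxylation and folding genes had 10 of 16 higher and 4 lower after siYAP (median log2 fold change 0.24). After siTAZ, 11 of 16 were higher and 2 lower (median 0.24). P4HA2, a catalytic subunit of the enzyme of which P4HB is the partner, stood at 219, 224 and 224 CPM in the siNT libraries, 678, 742 and 728 after siYAP and 236, 251 and 237 after siTAZ, with the siYAP libraries far above the rest. It rose 3.22-fold (log2 1.69 ± 0.04, adjusted p = 2.18e-47) after siYAP and rose 1.09-fold (log2 0.12 ± 0.04, adjusted p = 0.00744) after siTAZ. SERPINH1 (HSP47), the collagen-specific chaperone of the ER, stood at 542, 523 and 515 CPM in the siNT libraries, 451, 496 and 488 after siYAP and 671, 673 and 690.2 after siTAZ, in the order siTAZ, siNT, siYAP. It fell 1.1-fold (log2 -0.14 ± 0.03, adjusted p = 2.15e-04) after siYAP and rose 1.29-fold (log2 0.36 ± 0.03, adjusted p = 1.76e-14) after siTAZ. The lysyl hydroxylase PLOD1 was 1.63-fold higher after siYAP and 1.28-fold higher after siTAZ. PLOD2, another lysyl hydroxylase, was at a log2 fold change of -0.00 that did not pass after siYAP (adjusted p = 0.965) and 1.52-fold lower after siTAZ. BMP1, the procollagen C-proteinase, was 1.34-fold higher after siYAP and 1.51-fold higher after siTAZ.

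Procollagen, the cargo, had the chain genes COL1A1 and COL3A1 lower after siYAP (COL3A1 fell 1.56-fold) and higher after siTAZ (COL3A1 rose 1.78-fold). COL1A1, COL1A2 and COL3A1, the chains of collagens I and III, together measured 5528 ± 38.6 CPM in siNT cells (SD, n = 3), 3228 ± 33.1 in siYAP cells and 8865 ± 85.1 in siTAZ cells. The 36 ER genes together measured 10425 ± 13.7, 11185 ± 223 and 10973 ± 81.5 CPM. The ratio of these sums, which is not corrected for transcript length and so shows only change between groups, was 0.53 ± 0.00352 in siNT, 0.289 ± 0.00459 in siYAP and 0.808 ± 0.00845 in siTAZ cells. The ratios of the 3 groups did not overlap, while the siYAP and siTAZ libraries overlapped in the summed ER genes; these sums were not tested. The fibrillar procollagen genes had 3 of 9 higher and 5 lower after siYAP (median log2 fold change -0.20). After siTAZ, 7 of 9 were higher and 0 lower (median 0.59), where 0 were lower at an unadjusted p under 0.05 and 0 by DESeq2. COL1A1 fell 2.04-fold after siYAP while COL1A2 rose 2.1-fold, and after siTAZ they rose 1.5-fold and 2.67-fold.

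**Figure D5:**
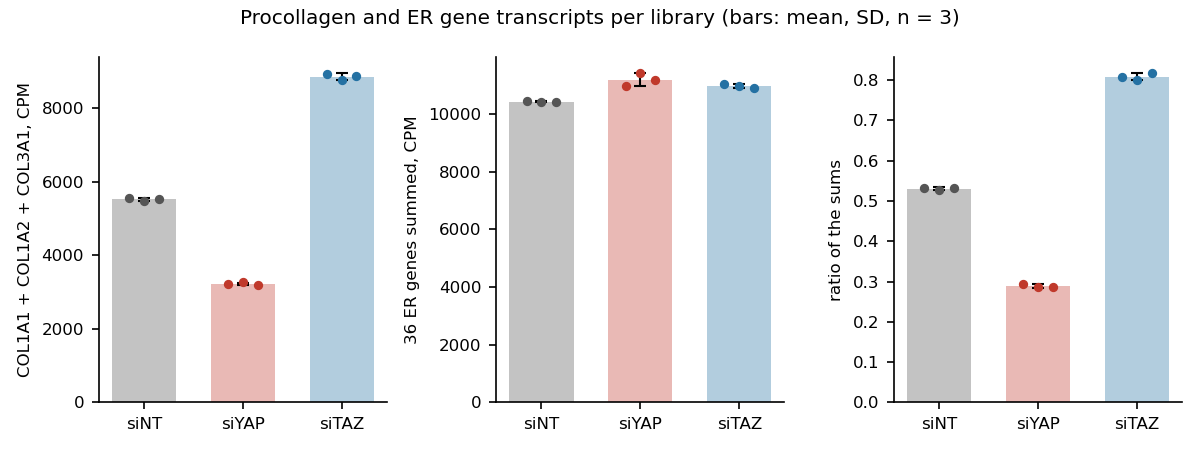
Summed CPM of COL1A1, COL1A2 and COL3A1 (left), summed CPM of the 36 ER genes (middle) and the ratio of these sums (right) in each library (points), with mean (bar) and SD (error bar) of the 3 libraries of each group. The ratio lies near 0.53 after siNT, 0.289 after siYAP and 0.808 after siTAZ, and the middle panel changes least.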

How the data were processed

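RNA from LX2 cells was made into 9 mRNA-seq libraries (SMARTER kit, per the labels' protocols). The authors deposited unnormalized read counts for each Ensembl gene. Per the submitters' processing notes the tools were HTSeq, Picard, SAMtools, STAR 2.5.0c and Trim Galore; those notes name mm10, a mouse build, although the gene IDs are human; the annotation and any use of strand were not given in the sources used here. Reads in no gene or in several genes (4.73% to 7.49% and 6.33% to 6.91% of each library) were left out. Names came from a gene name table (36366 IDs) and GENCODE 29 (219 IDs), and coordinates and exon lengths are those of GENCODE 29 on GRCh38; promoters are RefSeq's (GRCh38.p14). In R 4.3.3, edgeR 4.0.16 kept 15560 genes (filterByExpr, minimum count 10, minimum total 15), scaled libraries by TMM and fitted a robust quasi-likelihood model over all 9 libraries, with two-sided tests and Benjamini-Hochberg adjustment over all genes. Standard errors come from that fit. The fit was run on counts simulated from its own estimates of spread. Far fewer genes changed there than were called here, so it does not show how the fit performs on these data. Members and lists were chosen with earlier results of these data known. Named genes outside the members were drawn from up to 2 called genes with the smallest p per list, direction and comparison. Not every gene that met this rule is named, and no fixed rule set which were. Added to these were YAP1, WWTR1, COL1A1, COL1A2, COL3A1, ATF4, DDIT3, SERPINH1, MIA3 and MIA2. The alternatives were upper-quartile and RLE scaling, leaving the filter out, the replicate number as a block, only the compared groups, DESeq2 1.42.0, a test against a fold of 1.5, and each library left out. All pairs of libraries within a group differed by more than sampling noise.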

Additional observations from a re-analysis of the deposited data

Results flagged for a closer look

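Members called in opposite directions after siYAP and siTAZ were tested directly against each other, siTAZ minus siYAP on the log2 scale. The sensor ATF6 differed by 1.31, the J-protein DNAJB9 by 0.88, the isomerase PDIA3 by 0.70 and the chaperone HSPA5 by 0.24, all lower after siYAP. The lectin CALR differed by -0.28, the transcription factor CREB3L2 by -0.66 and the ERAD factor EDEM1 by -1.33, all higher after siYAP. Each passed edgeR's test, with no overlap between the siYAP and siTAZ libraries. The genes were chosen by their opposite calls against the same siNT libraries, so this follows largely from the choice and is no separate support. The siTAZ call of HSPA5 and the siYAP call of DNAJB9 were each lost on leaving out single libraries. Reads outside any annotated gene, which no comparison used, made up 6.68% ± 0.75 of siYAP libraries (SD, n = 3), above the 4.93% ± 0.196 of siNT libraries. In siTAZ libraries the share was 5.57% ± 0.0524, also wholly above siNT.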

How the results depend on the processing

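Counts of members called varied little except in the test against a fold of 1.5, which asks for larger changes. There 6 members passed after siYAP (4 higher, 2 lower), 0 after siTAZ (0 and 0), and 9 between siTAZ and siYAP (4 and 5), with 3852 (1957 and 1895), 342 (115 and 227) and 3633 (1736 and 1897) of all genes. With 1 library left out, 28 to 31 members were called after siYAP, 18 to 23 after siTAZ and 28 to 31 between them. The replicate numbers did not pair the libraries (correlations of same-numbered libraries' deviations -0.01 to 0.05), and with the replicate number as a block 30, 21 and 31 members were called. Directions turned only for members near 0 that were not called in either setting: HSP90B1 for siYAP against siNT (0.016 with upper-quartile scaling, -0.042 to -0.0074 without 1 library), MANF for siYAP against siNT (-0.0047 with no filter on low counts, -0.0078 to 0.0402 without 1 library), CRELD2 for siTAZ against siNT (-0.028 to 0.074 without 1 library), ERO1B for siTAZ against siNT (-0.124 to 0.0062 without 1 library), ERN1 for siTAZ against siNT (0.016 with upper-quartile scaling, 7.03e-05 with only the compared groups, -0.119 to 0.082 without 1 library), SEC23A for siTAZ against siNT (0.0105 with upper-quartile scaling, -0.019 to 0.0046 without 1 library), FKBP10 for siTAZ against siYAP (-0.0029 with RLE scaling, -0.012 with upper-quartile scaling, -0.0029 with DESeq2, -0.017 to 0.0397 without 1 library). ERO1B had the lowest counts of the members.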

Other observations

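The 7-base word TGGATAA, picked earlier from these data for being more frequent in 3' UTRs of genes that fell after siYAP than of genes that rose, was present in the longest annotated 3' UTR of 5 of 36 members (13.9%) and of 13% of 13356 tested genes (GENCODE 29). These were ERN1, CREB3L2, SEL1L and SEC24D, which rose after siYAP, and SSR3, which fell. The 6-base word ATGAAC, picked earlier from these data for siTAZ, was present for 14 members (38.9%) and 34.1% of genes. Of these members PDIA6, P4HB, XBP1, SEL1L, SYVN1 and SEC24D rose after siTAZ, and CREB3L2 and EDEM1 fell. DNAJC3, MANF, ERN1, CREB3L1, SSR1 and SEC23A also held it and did not pass after siTAZ. DNAJB9 and SSR3 did not hold it. The part of these words in the members' changes was not tested.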
